A study of Mus musculus with 12 samples.

Results

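NF-kB is a family of dimeric transcription factors that carries inflammatory signals to the nucleus, and several of the genes it activates encode its own inhibitors. The expression of 10 genes of this system was followed across 12 RNA-seq libraries of mouse aortic vascular smooth muscle cells (VSMC). They were the 5 subunit genes Nfkb1, Nfkb2, Rela, Relb and Rel and the 5 inhibitor genes Nfkbia, Nfkbib, Nfkbie, Nfkbiz and Tnfaip3. The 10 genes were taken by name from the 26706 names found in both deposited tables, and all 10 passed the filter on low counts in every comparison.

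Wild type (WT) cells and cells with a knockout of the nuclear receptor NR4A3 (NR4A3KO, here KO) were each sampled at day 1 and at day 14, with 3 libraries in each of the 4 groups. All groups were primary VSMC from the aorta, grown per the protocols in DMEM/F12 with serum and 10 mM β-GP, a phosphate donor used to make smooth muscle cells lay down mineral. By the treatment label, WT had none and KO had β-GP, so genotype and this labelled treatment cannot be told apart. The labels do not name the allele or the part of the gene that was removed, the strain, or whether the 3 libraries of a group came from separate animals or cultures. The p-values thus reflect how far these libraries spread, and that spread may be technical.

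In resting cells the NF-kB dimers are held in the cytoplasm by inhibitor of kB (IkB) proteins. Signals from cytokine and Toll-like receptors activate a kinase complex that marks the IkB proteins for destruction, and the freed dimers bind kB sites in DNA. In smooth muscle cells of the vessel wall the pathway is known for its part in inflammatory activation, with induction of chemokines, adhesion molecules and matrix-degrading enzymes.

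Library totals ranged from 13848199 to 30105118 counts. The targeted gene, Nr4a3, averaged 2.10 ± 0.24 CPM in KO and 4.22 ± 0.38 CPM in WT libraries of day 1 (SD, n = 3). On day 14 the KO mean was 49.6 ± 13.5 CPM and the WT mean 239 ± 19.9 CPM, and it passed the test as lower in KO each time (CPM is the count scaled to the same library total). Reads of Nr4a3 remained in all KO libraries. Sample labels were used as given, and an exchange of genotype labels at 1 of the days was not tested. WT replicate 1 of day 14 stood apart from its group: the chi-square per gene against the other two replicates was 32.6 and 46.1, while all other pairs within a group gave 2.78 to 17.8. Among defining smooth muscle markers, Tagln, Myh11 and Myocd were at or near 0 in all groups. Acta2 was read at group means of 274 to 1627 CPM and Des at 480 to 819 CPM. Group means were 0.255 to 1.93 CPM for Cnn1, 0.623 to 11.3 CPM for Lmod1 and 52.3 to 125 CPM for Smtn. Of 10 leukocyte markers in the tables, Ptprc, Adgre1, C1qa and Tyrobp were at or near 0 in every group, whereas Cd68 averaged 21.8 to 58.3 CPM and Cd14 16.7 to 40.7 CPM over the groups. The summed level of the list was 50.7 to 97.8 CPM. In bulk RNA of this kind, fewer cells of a type and less RNA per cell cannot be told apart.

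Across the 4 groups, 7 of the 10 genes had the same outline. Nfkb1, Nfkb2, Relb, Rel, Nfkbia, Nfkbie and Nfkbiz were lower in KO than in WT at day 1 and higher in KO than in WT at day 14. Rela, Nfkbib and Tnfaip3 did not follow it. The combination of a fall at day 1 and a rise at day 14 was called in 1881 of 14503 genes tested at both days, or 13.0%, and the reverse combination in 13.8%. The same count of 7 members was obtained under every alternative setting tried.

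**Figure D1:**
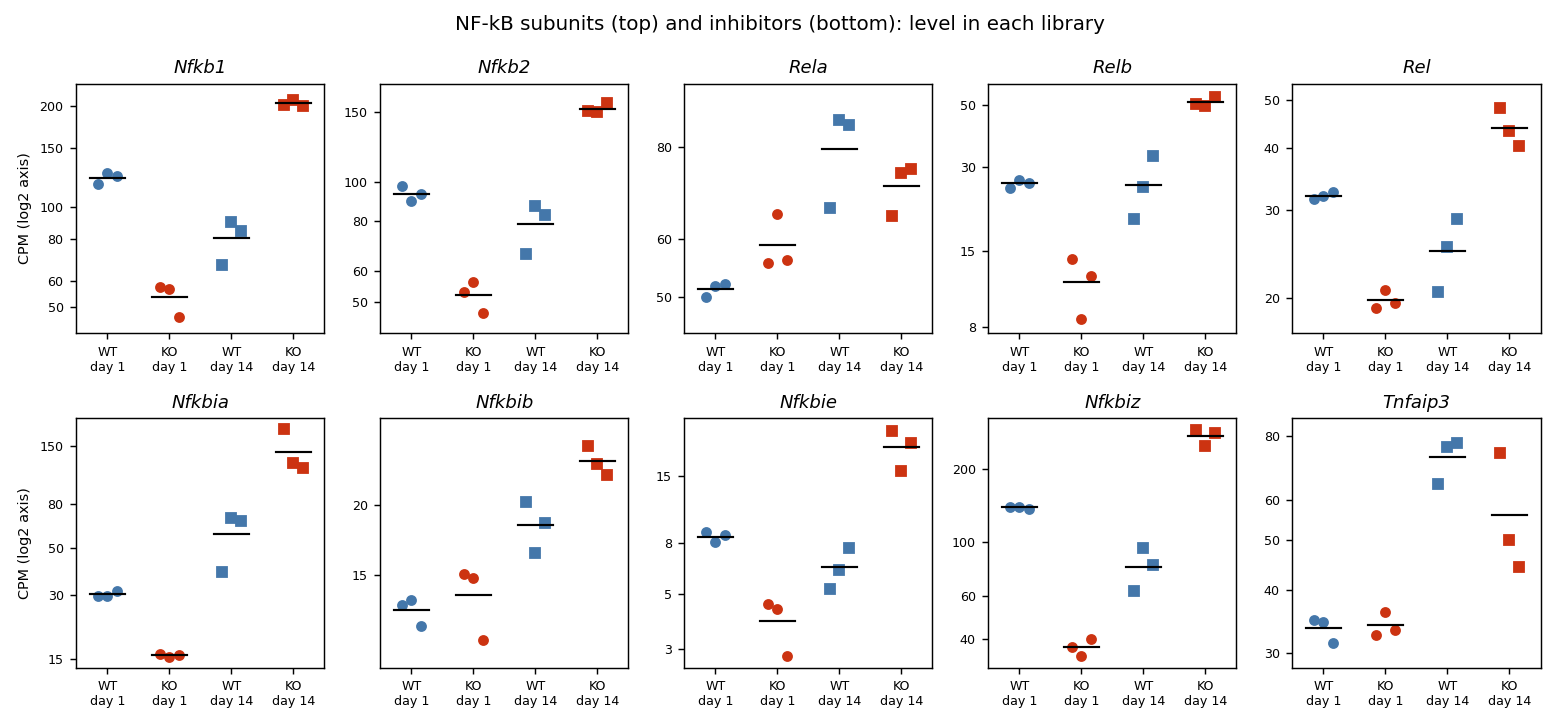
Level of the 5 subunit genes (top row) and the 5 inhibitor genes (bottom row) in each library, in CPM on a log2 axis, with blue for WT, red for KO, circles for day 1, squares for day 14 and a bar at the mean of the 3 libraries of a group. For Nfkb1, Nfkb2, Relb, Rel, Nfkbia, Nfkbie and Nfkbiz, the 3 KO libraries lie below the 3 WT libraries at day 1 and above them at day 14.

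Some markers of other cell types shifted beside the 7 members, not all in 1 direction. The summed level of 10 adventitial fibroblast markers was 574 to 585 CPM in WT and 248 to 372 CPM in KO at day 1, and 513 to 704 CPM in WT and 692 to 774 CPM in KO at day 14, where the ranges met. Of the 8 tested at day 1, 7 fell and 1 rose, and of the 7 tested at day 14, 4 rose and 2 fell. Over all genes tested, 30.2% fell and 30.6% rose at day 1, and 22.7% rose and 23.7% fell at day 14. Most of the fibroblast sum was Ly6a, which averaged 387 CPM in WT and 205 CPM in KO at day 1. At day 14 its means were 531 and 624 CPM. Cd34 and Dcn were lower in KO at both days, and at day 14 averaged 39.6 and 23.5 CPM in WT against 7.53 and 8.48 CPM in KO. Dpt was at 0 counts in KO of day 1 and Lum at 0 counts in KO of day 14. Both were low throughout, with highest group means of 1.07 and 0.177 CPM. Of 7 mesothelial and epithelial markers, the 4 tested all fell in KO at day 14, where the list summed to 281 to 421 CPM in WT and 78.7 to 82.4 CPM in KO. At day 1 this sum was 399 to 407 CPM in WT and 361 to 370 CPM in KO. Of the 4 mesothelial and epithelial markers tested at day 1, 2 fell and 1 rose. Mitochondrial genes held 3.26% to 3.42% of counts in WT and 4.41% to 4.79% in KO at day 14, against 4.25% to 4.50% and 3.66% to 4.70% at day 1. The part of these cells, and of the mitochondrial share, in the result was not tested.

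The subunit genes were compared first at day 1, between KO and WT. Nfkb1 and Nfkb2 encode precursors that are processed to DNA-binding subunits, and Relb and Rel encode subunits with their own activation domains. Of the 5 subunits, 4 fell in KO and 1 rose, where 60.8% of the 15368 genes tested were called, 30.2% lower and 30.6% higher (edgeR's quasi-likelihood test, Benjamini-Hochberg adjusted p below 0.05).

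Nfkb1 read 117, 126 and 123 CPM in the WT libraries of day 1 and 57.4, 56.9 and 46.9 CPM in the KO libraries. Every KO library was below every WT library. The log2 fold change of KO over WT was -1.20 ± 0.08 (standard error; adjusted p = 3.37e-08). Nfkb2 read 97.9, 90.0 and 93.4 CPM in WT and 53.1, 56.3 and 46.8 CPM in KO, again without overlap. Its log2 fold change was -0.87 ± 0.08 (adjusted p = 5.09e-07). Exons of Nfkb2 share 299 bases with Psd and 531 bases with a long non-coding RNA on the opposite strand. Whether counting used strand is not known here, and reads of the overlap cannot be assigned.

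Relb, the partner of the processed Nfkb2 product in the non-canonical pathway, read 25.3, 26.9 and 26.4 CPM in WT and 13.99, 8.53 and 12.2 CPM in KO at day 1. The KO libraries spread widely but stayed under the lowest WT library, and the log2 fold change was -1.19 ± 0.14 (adjusted p = 8.99e-06). Rel, known mainly from lymphoid cells, read 31.7, 32.0 and 32.7 CPM in WT and 19.1, 20.8 and 19.6 CPM in KO. The groups did not overlap, with a log2 fold change of -0.71 ± 0.08 (adjusted p = 6.96e-06).

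Rela, which encodes the main activating subunit of the canonical dimer, moved the other way. It read 50.03, 51.9 and 52.1 CPM in WT and 55.7, 64.9 and 56.1 CPM in KO at day 1. All KO libraries were above all WT libraries, by little. The log2 fold change was 0.18 ± 0.07 (adjusted p = 0.0456), a call that was lost in 9 of 14 alternatives, where the adjusted p reached 0.161.

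At day 14 the 4 subunits that had fallen were higher in KO, and Rela did not pass the test. Among the 14905 genes tested at this day 46.4% were called, 22.7% higher and 23.7% lower. Nfkb1 read 67.2, 90.1 and 84.7 CPM in WT and 202, 209 and 201 CPM in KO. The KO libraries lay close together, above all WT libraries, and the log2 fold change was 1.34 ± 0.12 (adjusted p = 3.36e-05).

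Nfkb2 read 66.2, 87.1 and 82.9 CPM in WT and 151, 150 and 158 CPM in KO at day 14. The groups were well apart, with a log2 fold change of 0.96 ± 0.11 (adjusted p = 1.82e-04). Relb read 19.5, 25.4 and 32.8 CPM in WT and 50.5, 49.7 and 53.3 CPM in KO. The WT libraries were the more spread, and the log2 fold change was 0.98 ± 0.17 (adjusted p = 0.00164). Rel read 20.6, 25.3 and 28.8 CPM in WT and 48.1, 43.2 and 40.4 CPM in KO, without overlap. Its log2 fold change was 0.82 ± 0.14 (adjusted p = 0.00160).

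Rela read 66.1, 87.3 and 85.7 CPM in WT and 64.5, 73.8 and 74.7 CPM in KO at day 14. The lowest WT library, replicate 1, lay among the KO libraries. The log2 fold change was -0.17 ± 0.13 (adjusted p = 0.303). Without WT replicate 1 it was -0.31 (adjusted p = 0.00338).

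The inhibitors were compared in the same way. Nfkbia and Nfkbie encode IkB proteins that NF-kB induces and that bind the dimers again, Nfkbib encodes an IkB protein of slower turnover, Nfkbiz encodes a nuclear IkB protein that also acts as a coactivator of secondary response genes, and Tnfaip3 encodes a ubiquitin-editing enzyme that dampens signalling upstream of the kinase complex. At day 1, 3 of the 5 inhibitors fell in KO and none rose, where 60.8% of all genes tested were called, 30.2% lower. At day 14, 4 of the 5 rose and none fell, where 46.4% of all genes tested were called, 22.7% higher.

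Nfkbiz had the largest fold change of the 10 members at both days. It read 140, 140 and 137 CPM in WT and 36.8, 34.0 and 39.8 CPM in KO at day 1, and its log2 fold change was -1.93 ± 0.07 (adjusted p = 1.13e-10). At day 14 it read 62.9, 94.2 and 80.5 CPM in WT and 288, 250 and 280 CPM in KO, and its log2 fold change was 1.79 ± 0.15 (adjusted p = 2.35e-05). The groups were apart by more than their spread at each day, in opposite order.

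Nfkbia read 29.7, 29.6 and 31.4 CPM in WT and 15.8, 15.2 and 15.6 CPM in KO at day 1. The replicates of each group were nearly level, and the log2 fold change was -0.97 ± 0.09 (adjusted p = 5.59e-07). At day 14 it read 38.2, 69.0 and 67.0 CPM in WT and 181, 125 and 119 CPM in KO. The spread was wide in both groups, with WT replicate 1 low and KO replicate 1 high, yet no KO library came near the WT range. The log2 fold change was 1.29 ± 0.24 (adjusted p = 0.00223).

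Nfkbie was the member with the lowest counts, at 8.87, 8.08 and 8.63 CPM in WT and 4.53, 4.32 and 2.81 CPM in KO at day 1. It was lower in each KO library, with a log2 fold change of -1.15 ± 0.18 (adjusted p = 1.10e-04). At day 14 it read 5.24, 6.26 and 7.68 CPM in WT and 22.9, 15.8 and 20.4 CPM in KO. This rise, 1.62 ± 0.20 on the log2 scale (adjusted p = 2.52e-04), was the second in size among the 10 members.

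Nfkbib did not pass the test at day 1, where it read 13.2, 13.5 and 12.1 CPM in WT and 15.1, 14.8 and 11.4 CPM in KO. The groups overlapped, and the log2 fold change was 0.07 ± 0.13 (adjusted p = 0.658). At day 14 it read 20.3, 16.4 and 18.6 CPM in WT and 25.6, 23.7 and 22.6 CPM in KO. The groups were apart and the log2 fold change was 0.38 ± 0.13 (adjusted p = 0.0357), a call that was lost in 7 of 14 alternatives, 5 of which left out a library. Exons of Nfkbib share 314 bases with Ccer2 and 42 bases with Sirt2 on the opposite strand, so part of its reads carry the same uncertainty as those of Nfkb2.

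Tnfaip3 passed the test at neither day. It read 34.8, 34.6 and 31.4 CPM in WT and 32.6, 36.1 and 33.3 CPM in KO at day 1, with overlapping groups and a log2 fold change of 0.0016 ± 0.080 (adjusted p = 0.988). At day 14 it read 64.4, 76.4 and 77.5 CPM in WT and 74.1, 50.02 and 44.3 CPM in KO. KO replicate 1 lay inside the WT range and the other two KO libraries below it. The log2 fold change was -0.37 ± 0.18 (adjusted p = 0.127). It passed the test without WT replicate 1 (-0.48, adjusted p = 0.00885), without KO replicate 1 (-0.62, adjusted p = 0.0102), with no filter on low counts (-0.37, adjusted p = 0.0165) and in the fit of all 12 libraries (adjusted p = 0.0446).

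**Figure D2:**
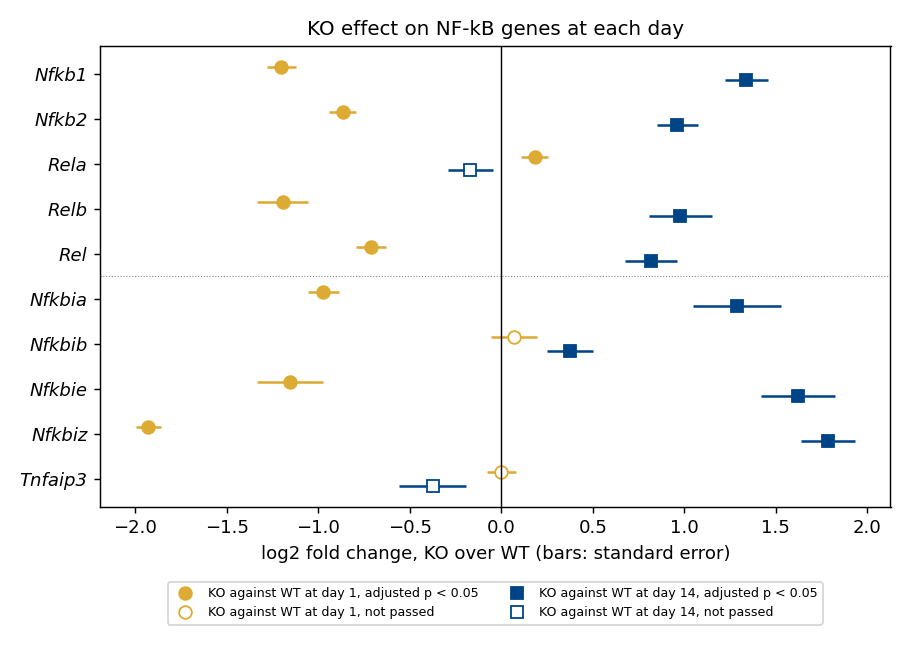
Log2 fold change of KO over WT for each of the 10 genes at day 1 and at day 14, with bars of 1 standard error and filled points where the adjusted p was below 0.05. Nfkbiz runs from -1.93 at day 1 to 1.79 at day 14, whereas Rela runs from 0.18 to -0.17 and Tnfaip3 from 0.00 to -0.37.

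The change of the KO effect from day 1 to day 14 was tested as its own contrast in a fit of all 12 libraries, where a shift common to all libraries of a table cancels. It passed the test in 8 of the 10 genes, with 7 more positive and 1 more negative, where 60.1% of 15956 genes passed, 28.4% as more positive and 31.7% as more negative. On the log2 scale the change was 3.70 ± 0.17 for Nfkbiz (adjusted p = 9.25e-11) and 2.76 ± 0.28 for Nfkbie (adjusted p = 6.46e-07). Nfkb1, Nfkbia, Relb, Nfkb2 and Rel followed with 2.53, 2.25, 2.16, 1.81 and 1.51. These 7 kept their call under all 19 alternatives.

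For Rela the change was -0.37 ± 0.15 (adjusted p = 0.0479), and the call was lost in 16 of 19 alternatives. For Nfkbib it was 0.29 ± 0.18 (adjusted p = 0.175), and for Tnfaip3 -0.39 ± 0.21 (adjusted p = 0.121). Tnfaip3 passed without WT replicate 1 of day 14 (-0.46), without KO replicate 1 of day 14 (-0.63) and with library size alone as scaling (-0.57).

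The balance between the genes was also read inside each library, as the ratio of the counts of 2 genes. Such a ratio does not depend on library scaling, though it mixes gene lengths and is not a ratio of levels. The count of Nfkb1 over that of Rela was 2.33 to 2.43 in WT and 0.836 to 1.03 in KO at day 1, and 0.987 to 1.03 in WT and 2.69 to 3.14 in KO at day 14. The ranges of KO and WT were apart at both days, in opposite order. Nfkbia over Rela ran from 0.570 to 0.602 in WT and from 0.234 to 0.284 in KO at day 1. At day 14 it was 0.579 to 0.790 in WT and 1.59 to 2.81 in KO, so that the inhibitor was again the lower in KO at day 1 and the higher at day 14.

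Relb over Rela was 0.506 to 0.518 in WT and 0.131 to 0.251 in KO at day 1, and 0.291 to 0.382 in WT and 0.673 to 0.783 in KO at day 14. The 2 negative regulators Tnfaip3 and Nfkbia also parted from each other. Tnfaip3 over Nfkbia was 1.00 to 1.17 in WT and 2.06 to 2.37 in KO at day 1, but 1.11 to 1.69 in WT and 0.373 to 0.409 in KO at day 14.

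**Figure D3:**
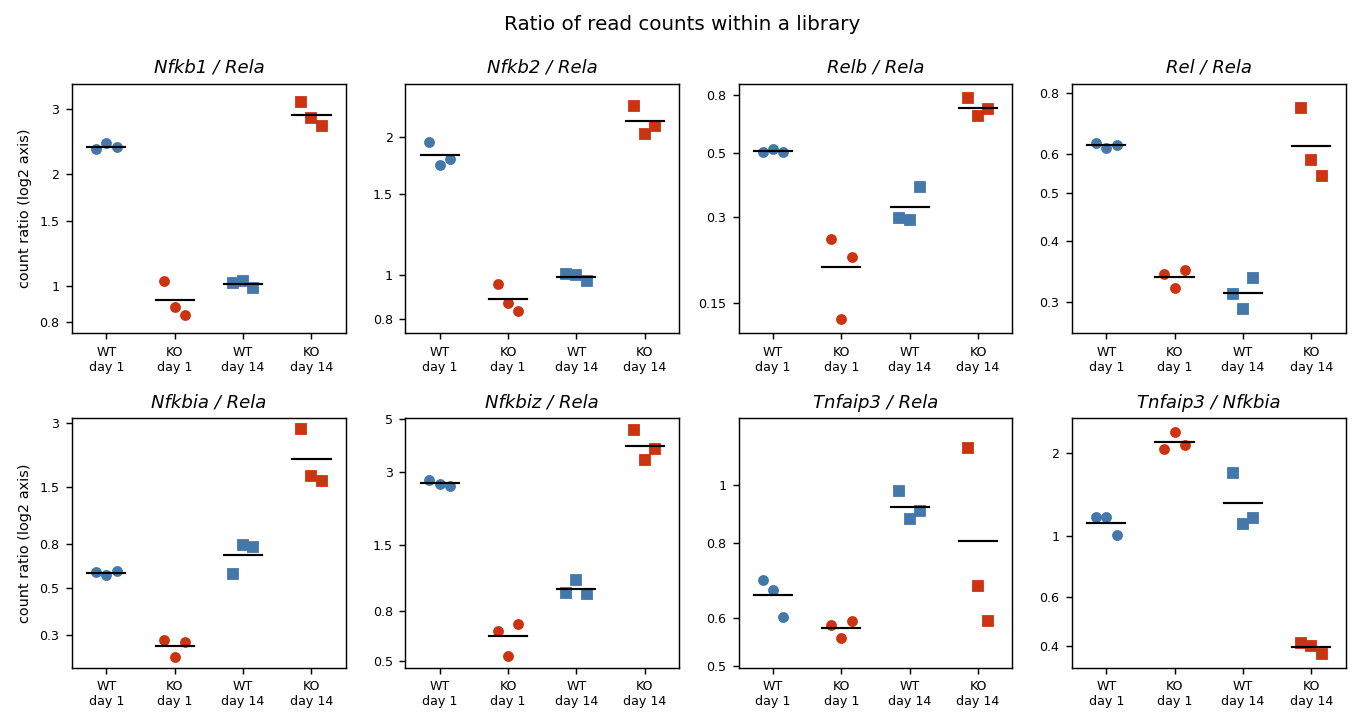
Ratio of the counts of 2 genes within each library on a log2 axis, with blue for WT, red for KO, circles for day 1, squares for day 14 and a bar at the group mean. For Nfkb1 over Rela the KO libraries lie below the WT libraries at day 1 (0.836 to 1.03 against 2.33 to 2.43) and above them at day 14 (2.69 to 3.14 against 0.987 to 1.03).

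For a comparison of levels between genes, CPM were divided by the length of the principal GENCODE M21 transcript. On this per-length scale Rela made up 19.99% ± 0.27 (SD, n = 3) of the summed level of the 5 subunits in WT and 36.7% ± 2.28 in KO at day 1. At day 14 its share was 33.0% ± 0.43 in WT and 17.0% ± 1.05 in KO. Nfkb1 held 31.4% ± 1.00 in WT against 22.0% ± 1.24 in KO on day 1, and 22.0% ± 0.77 in WT and 32.3% ± 0.90 in KO at day 14. By this length Rela led the 5 subunits in KO of day 1 and WT of day 14, while Nfkb1 and Nfkb2 led in the other two groups. The place of Nfkb1 in this order depends on the length used. Its principal transcript has 4117 bases, and its exons of all transcripts together cover 12061 bases. Rel had the smallest share in each group, between 3.75% and 4.55%.

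Promoter sequences are shown as background, since NF-kB is known to bind at several of them. RefSeq promoter windows (GRCm38.p6, 250 bases before to 50 after a start site) were matched by symbol for 7 of the 10 genes, with 10 windows in all. Nfkb1, Relb and Nfkbiz had no entry. Nfkb2 and Tnfaip3 had several windows each, and not all of these are shown. Both strands were searched for the 10-letter kB consensus. The sequences below are the 250 bases up to the start site, 5′ to 3′ on the strand of the gene, with matches to the kB consensus on either strand in capitals. The Nfkbia window is chr12:55492648-55492897, minus strand. Nfkb2 is chr19:46304487-46304736, plus strand. Tnfaip3 is chr10:19015411-19015660, minus strand. Rela is chr19:5637291-5637540, plus strand.
Nfkbia: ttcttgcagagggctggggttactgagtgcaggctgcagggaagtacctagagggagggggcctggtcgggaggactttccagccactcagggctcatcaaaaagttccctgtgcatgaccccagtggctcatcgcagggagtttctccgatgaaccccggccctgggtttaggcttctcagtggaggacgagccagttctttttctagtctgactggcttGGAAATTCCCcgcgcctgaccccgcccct
Nfkb2: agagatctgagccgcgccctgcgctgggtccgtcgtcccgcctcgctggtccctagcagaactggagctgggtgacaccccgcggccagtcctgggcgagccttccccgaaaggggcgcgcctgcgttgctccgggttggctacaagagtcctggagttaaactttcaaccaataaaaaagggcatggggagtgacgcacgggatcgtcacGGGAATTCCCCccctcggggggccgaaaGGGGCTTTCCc
Tnfaip3: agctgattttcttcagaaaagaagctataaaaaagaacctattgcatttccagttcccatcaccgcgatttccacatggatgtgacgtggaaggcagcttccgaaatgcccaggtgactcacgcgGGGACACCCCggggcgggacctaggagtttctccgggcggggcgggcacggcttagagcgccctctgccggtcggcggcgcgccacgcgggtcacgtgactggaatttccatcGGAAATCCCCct
Rela: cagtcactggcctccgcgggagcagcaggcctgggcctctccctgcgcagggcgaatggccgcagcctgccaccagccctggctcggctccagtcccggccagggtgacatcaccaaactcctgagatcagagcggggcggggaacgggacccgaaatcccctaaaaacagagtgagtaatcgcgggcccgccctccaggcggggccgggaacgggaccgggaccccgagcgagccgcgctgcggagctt
The consensus was found in the windows of 5 of the 7 genes, Nfkb2, Rel, Nfkbia, Nfkbie and Tnfaip3, and in those of 5.14% of 27025 genes in the table. Counted by window, it was in 7 of the 10 and in 4.51% of 32851.

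Nfkbia holds GGGAATTTCC on the opposite strand, starting 29 bases before the start site. In Nfkb2 the capitals cover overlapping matches, GGGAATTCCC and, on the opposite strand, GGGGAATTCC, followed by GGGGCTTTCC starting 11 bases before the start site. In the window shown, Tnfaip3 holds GGGACACCCC and, on the opposite strand, GGGGATTTCC. The Tnfaip3 window that is not shown holds no match. The Nfkb2 windows that are not shown hold GGGACTTTCC and, on the opposite strand, GGGACATTCC. Nfkbie and Rel hold GGGGGATTCC and GGGGATTTCC, the latter on the opposite strand. Rel also holds overlapping matches, among them GGGAAATCCC on the strand of the gene. Any link between these matches and the changes in level was not tested. No match was found in the windows of Rela and Nfkbib, which says only that these letters are not in those 300 bases. A match is a description of sequence and no binding was measured here.

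Levels at day 14 were next compared with those at day 1 within each genotype. Each day has its own table, so any batch of a table and the day cannot be told apart. In KO, all 10 genes rose from day 1 to day 14, where 54.7% of genes tested were called and 26.2% rose. The log2 fold changes ran from 3.19 ± 0.20 for Nfkbia, 2.89 ± 0.12 for Nfkbiz and 2.35 ± 0.20 for Nfkbie down to 0.72 ± 0.15 for Tnfaip3 and 0.27 ± 0.11 for Rela (adjusted p = 0.0448), whose lowest library of day 14 lay below the highest of day 1. The Rela call was lost in 5 alternatives.

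In WT the members split. Of the 10 genes, 4 fell from day 1 to day 14 and 4 rose, where 51.8% of genes tested were called, 25.0% lower and 26.8% higher. The 4 that fell were Nfkbiz (-0.81 ± 0.12), Nfkb1 (-0.60 ± 0.10), Rel (-0.37 ± 0.11, adjusted p = 0.0145) and Nfkb2 (-0.25 ± 0.10, adjusted p = 0.0417). The call for Nfkb2 was lost in 5 alternatives: library size alone (adjusted p = 0.248), the 6 WT libraries alone (0.0980), and without WT replicate 1 of day 14 (0.101), WT replicate 1 of day 1 (0.0931) or WT replicate 3 of day 1 (0.0621). The call for Rel was lost with library size alone (adjusted p = 0.0711) and with the 6 WT libraries alone (0.0514). The 4 that rose were Tnfaip3 (1.11 ± 0.15), Nfkbia (0.94 ± 0.19), Rela (0.63 ± 0.11) and Nfkbib (0.51 ± 0.13). Relb (-0.02 ± 0.17, adjusted p = 0.949) and Nfkbie (-0.41 ± 0.19, adjusted p = 0.0882) did not pass the test.

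The order of the group levels followed from these contrasts. For Nfkb1, Nfkb2, Rel, Nfkbie and Nfkbiz the mean level was highest in KO of day 14, followed by WT of day 1. WT of day 14 came next and KO of day 1 last. In the fit of 12 libraries the last pair for Rel and the middle pair for Nfkbie did not pass the test. The libraries of the Rel pair overlapped and those of the Nfkbie pair did not. Relb had KO of day 14 at the top and KO of day 1 at the bottom, and its WT groups did not differ beyond their spread. Nfkbia had WT of day 14 above WT of day 1. Nfkbib was highest in KO of day 14, followed by WT of day 14. Rela and Tnfaip3 had their highest mean in WT of day 14, followed by KO of day 14, and the Rela pair did not differ beyond its spread. For Rela, Nfkbib and Tnfaip3 the day 1 groups came last, and their difference did not pass the test in this fit. At day 1 the KO and WT libraries overlapped for Nfkbib and Tnfaip3 but not for Rela.

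KO cells of day 1 and WT cells of day 14 were the pair of groups with the fewest called differences over all genes, 1575 of 15956 or 9.87%, against 50.8% to 54.7% in the other pairs in the same fit of 12 libraries. Nr4a3 was lower in KO of day 1 than in WT of day 14 by this fit, at -6.82 ± 0.21 on the log2 scale. Birc2, a ubiquitin ligase of the tumour necrosis factor receptor complex, differed by 0.08 ± 0.10 between these groups (adjusted p = 0.655), although KO and WT differed by 2.06 and -3.09 within day 1 and day 14. The members were not level between these groups: 9 of 10 were lower in KO of day 1, where 5.85% of genes were lower and 4.02% higher. The largest difference was for Nfkbia, at -1.90 ± 0.20 on the log2 scale (adjusted p = 4.44e-05), followed by Relb (-1.16 ± 0.18), Nfkbiz (-1.10 ± 0.12) and Tnfaip3 (-1.10 ± 0.15). Rel, at -0.33 ± 0.12, did not pass the test (adjusted p = 0.0889). With only the 6 libraries of these groups in the fit, 205 of 15008 genes were called and 4 members passed. Leaving out single libraries gave 6 to 10 members. The number of genes called was 5531 of 16415 without WT replicate 1 of day 14, where 10 members passed. It was 611 of 16467 without WT replicate 2 of day 14, where 6 members passed. Without KO replicate 3 of day 1 it was 577 of 16431.

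Between the other diagonal pair, KO of day 14 and WT of day 1, all 10 genes were higher in KO of day 14, where 50.8% of genes tested were called and 25.2% were higher. The log2 fold changes ran from 0.45 ± 0.11 for Rel and 0.47 ± 0.11 for Rela to 1.21 ± 0.19 for Nfkbie and 2.23 ± 0.19 for Nfkbia. This count of 10 was the same under every alternative.

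The rest of the pathway was described by 4 lists, of receptors and adaptors, kinases, other IkB proteins and negative regulators, and target genes. In this order, 23 of 25, 14 of 14, 17 of 18 and 26 of 36 listed genes were tested. The rest had no name in the count tables or did not pass the filter on low counts. A gene can pass that filter through 1 group where it is high, so genes low in all groups are missing from the counts below. Their medians stand beside those of all genes tested, 0.01 at day 1 and -0.0015 at day 14 on the log2 scale. Their counts stand beside the 60.8% of all genes that were called at day 1 and the 46.4% at day 14. A fall at day 1 joined to a rise at day 14 is read beside 13.0% of all genes, and the reverse beside 13.8%. Of 26 target genes tested at day 1, 15 fell in KO and 5 rose, with a median of -0.91. At day 14, 18 rose and 4 fell, with a median of 1.73. Lcn2, which encodes an iron-siderophore binding protein of the acute phase, averaged 9.50 ± 1.37 CPM in WT libraries of day 1 but 0.068 ± 0.075 CPM in KO. On day 14 the WT mean was 0.769 ± 0.370 CPM and the KO mean 77.6 ± 40.8 CPM. Cxcl10, a chemokine gene that interferons also induce, moved the opposite way, with log2 fold changes of 4.11 ± 0.21 at day 1 and -1.30 ± 0.22 at day 14.

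Other targets that the naming rule took were Nos2, which encodes the inducible nitric oxide synthase, and Mmp9, which encodes a gelatinase. Nos2 fell at day 1, from a WT range of 5.16 to 6.41 CPM to a KO range of 0 to 0.449 CPM. At day 14 Nos2 rose, by 4.83 ± 0.48 on the log2 scale. Mmp9 read 0.183 ± 0.175 CPM in WT and 23.1 ± 4.62 CPM in KO at day 14. It did not pass the test at day 1 (-0.36 ± 0.41). Ccl5, a chemokine gene, rose at day 1 (1.73 ± 0.23), and Gadd45b, a stress response gene, fell at day 14 (-1.26 ± 0.21). Neither gene passed the test at the other day. A fall at day 1 joined to a rise at day 14 was called in 13 of the 26 target genes and the reverse in 3.

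Among 17 other IkB proteins and negative regulators, 6 rose and 7 fell at day 1 (median -0.11), and 8 rose and 4 fell at day 14 (median 0.26). Bcl3, a nuclear IkB protein, and Zc3h12a, a ribonuclease that degrades inflammatory mRNAs, had the outline of the 7 members. Bcl3 read 9.62 ± 1.07 CPM in WT and 0.894 ± 0.583 CPM in KO at day 1. The day 14 means were 1.29 ± 0.65 CPM in WT and 11.8 ± 2.43 CPM in KO. Zc3h12a averaged 17.3 ± 1.85 CPM in WT against 7.53 ± 1.29 CPM in KO on day 1. On day 14 these means were 16.8 ± 4.08 CPM and 111 ± 6.35 CPM. The fall and rise together were called in 5 of the 17, and the reverse in 3. Nlrc5 and Nkrf rose at day 1 (1.48 and 0.58), and Tnip2 and N4bp1 fell at day 14 (-0.57 and -0.39).

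The kinases had the medians nearest to 0 among the 4 lists. Of 14 tested, 3 rose and 5 fell at day 1 (median -0.10), and 4 rose and none fell at day 14 (median 0.05). Ikbke, an IkB kinase that is itself inducible, read 38.0 ± 1.00 CPM in WT and 14.1 ± 0.90 CPM in KO at day 1. On day 14 its WT mean was 19.6 ± 5.33 CPM and its KO mean 70.9 ± 1.24 CPM. Map3k8, the kinase held by the Nfkb1 precursor, averaged 7.30 ± 0.49 CPM in WT against 1.01 ± 0.39 CPM in KO on day 1. On day 14 these means were 2.27 ± 0.70 CPM and 7.34 ± 0.95 CPM. Both fell at day 1 and rose at day 14, which makes 2 of 14 kinases beside 13.0% of all genes, and none had the reverse. Ikbkg, the regulatory subunit of the kinase complex, and Tbk1 rose at day 1 by 0.93 ± 0.08 and 0.39 ± 0.06 on the log2 scale.

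Of 23 receptors and adaptors tested, 7 rose and 12 fell at day 1 (median -0.33), and 12 rose and 4 fell at day 14 (median 0.39). The outline of the 7 members was called in 9 of the 23 and the reverse in 4. Il1rap, a subunit of the interleukin-1 receptor, fell at day 1 (-1.19 ± 0.08) and rose at day 14 (1.60 ± 0.15). Traf5, an adaptor of the tumour necrosis factor receptor family, fell at day 1 (-1.98 ± 0.10) and rose at day 14 (1.09 ± 0.20). Cd40, a receptor of that family, fell at day 1 (-1.08 ± 0.39) and rose at day 14 (2.82 ± 0.51). Birc2 moved opposite to the 7 members, with log2 fold changes of 2.06 ± 0.09 at day 1 and -3.09 ± 0.12 at day 14. Irak2 (1.64 ± 0.08 and -1.68 ± 0.12) and Birc3 (3.07 ± 0.38 and -2.14 ± 0.26) also rose at day 1 and fell at day 14.

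**Figure D4:**
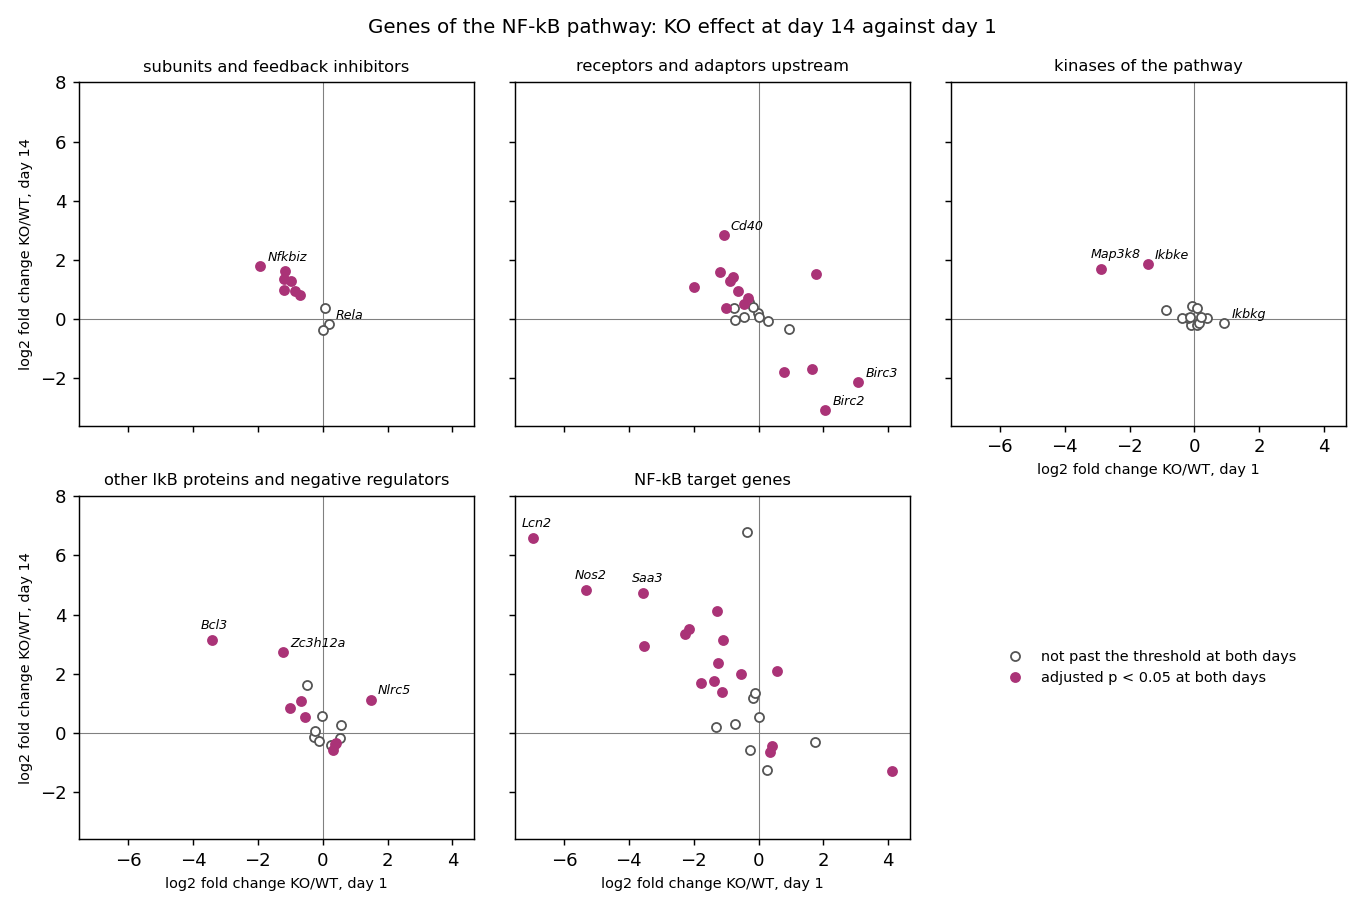
Log2 fold change of KO over WT at day 14 (vertical axis) against day 1 (horizontal axis) for the 10 members and 4 other lists of the pathway, with filled points where the adjusted p was below 0.05 at both days. The 7 filled members lie in the upper left, as do 13 of 26 target genes, while Birc2 and Birc3 lie in the lower right.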

How the data were processed

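Total RNA of 12 libraries was extracted with TRIzol and prepared with the NEBNext Ultra RNA kit, per the labels' protocols. The deposited values are raw counts per gene name, in 1 table a day, from the authors. The genome build was mm9, per the submitters' processing notes. For the aligner, the counter, the annotation and the use of strand: not given in the sources used here. Columns named CTR were read as WT. Repeated lines with the same name and counts (43 and 53) were dropped, and 26 names in each table had been turned into dates.

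Counts were tested with edgeR 4.0.16 under R 4.3.3 (filterByExpr, TMM scaling, the quasi-likelihood F test, p adjusted by Benjamini-Hochberg over all genes tested and called below 0.05). KO was compared with WT in the 6 libraries of each day, and 5 further contrasts came from a fit of all 12. Each standard error is the log2 fold change divided by the square root of the F value. CPM use the TMM factors of all 12 libraries. The fits were also run on simulated counts in which only a small set of genes was changed. Of genes changed 1.5-fold, 59.7% were recovered at day 1, 25.4% at day 14 and 19.4% for the change of the KO effect. Of genes changed 4-fold, 97.0%, 90.9% and 69.7% were recovered. Far more genes were called in the real data, a setting that the simulation did not cover. Library totals were 13848199 to 30105118, and replicates differed by more than sampling noise.

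The members and lists were chosen with earlier results of these data known. The text names Nr4a3, all 10 members, and of each further list the 2 largest rises and 2 largest falls at each day among called genes whose groups do not overlap and whose mean log2 CPM reaches 1. Alternatives were library size alone and DESeq2-style size factors as scaling, DESeq2 1.42.0 and limma-voom (limma 3.58.1) as tests, no filter or a filter of 1 CPM in 3 libraries, a block for the replicate number, fits of other library sets, and leaving out each library in turn. Lymphocyte, endothelial, mesothelial and epithelial marker lists were also read. Only 1 of the 6 listed lymphocyte markers, Cd79a, was among the gene names, and it reached at most 0.118 CPM. No other lymphocyte marker could be read. The endothelial markers summed to 5.17 to 16.1 CPM. The smooth muscle list summed to 1014 to 2395 CPM, most of it from Acta2 and Des.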

Additional observations from a re-analysis of the deposited data

Results flagged for a closer look

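The KO effect differed between the days, by the test of the difference itself in the fit of all 12 libraries, for 8 of the 10 genes. The log2 difference, day 14 minus day 1, was 3.70 for Nfkbiz, 2.76 for Nfkbie, 2.53 for Nfkb1, 2.25 for Nfkbia, 2.16 for Relb, 1.81 for Nfkb2 and 1.51 for Rel. For Rela it was -0.37, and this call alone among the 8 was lost in most alternatives. Over all genes, 60.1% passed the same test. With 3 libraries a group, single libraries were not tested as outliers.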

How the results depend on the processing

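The calls for Nfkb1, Nfkb2, Relb, Rel, Nfkbia, Nfkbie and Nfkbiz in KO against WT held at each day under every alternative. Values near 0 changed sign. Tnfaip3 at day 1 was -0.0014 with size factors of the DESeq2 kind, -0.0015 with DESeq2 and -0.022 without a filter, and ran from -0.052 (without WT replicate 3) to 0.027 (without KO replicate 1) when a library was left out. Nfkbib at day 1 ran from -0.0037 (without KO replicate 1) to 0.20 (without KO replicate 3). Relb between the days in WT was 0.10 with library size alone and ran from -0.23 to 0.15 when a library was left out, the latter without WT replicate 1 of day 14. KO of day 1 against WT of day 14 rested most on the choice of libraries: the fit of 12 libraries called 1575 genes, a separate fit of the 6 libraries of these groups called 205 with 4 members, and leaving out single libraries gave 577 (without KO replicate 3 of day 1) to 5531 (without WT replicate 1 of day 14) genes. With library size alone the share of calls that were higher moved from 50.4% to 61.7% for KO against WT at day 1 and from 51.7% to 62.7% between the days in WT. The share for KO of day 1 against WT of day 14 moved from 40.7% to 9.27% with its 6 libraries. The cause of these shifts was not tested. Correlations of same-numbered deviations between groups ran from -0.07 to 0.10. Differently numbered libraries were not read beside them, so these values cannot decide whether the replicate numbers pair the libraries. With the replicate number as a block, 7 members were called in KO against WT at day 1 and 8 at day 14. Over all genes, 9090 of 15368 and 6716 of 14905 were called in these fits. Rela at day 1 (adjusted p = 0.0545) and Nfkbie in KO of day 1 against WT of day 14 (adjusted p = 0.0568) no longer passed with the block. Nfkbie had the lowest counts of the members.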

Other observations

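The genes whose levels ran most like each member were listed over all 12 libraries, as Pearson's r of log2 CPM. This is a description: the 12 points share 4 groups and 2 tables, and r mainly follows the group means. Nfkbiz ran closest to C3, the central complement component (r = 0.997). Rel ran close to Hr, a nuclear corepressor gene (0.992), and to Ikbke (0.986), and Nfkb2 to Irak1, a kinase of interleukin-1 receptor signalling (0.992). Nfkb1 was closest to Pik3c3 (0.990), which was also among the 3 nearest genes of Nfkb2 and Nfkbiz. Nfkbie was closest to Adamts4, an aggrecanase gene (0.986), with Nfkb2 next (0.979), and Nfkbia to C1ra, a complement protease gene (0.984). Rela was closest to Ehmt2, a histone methyltransferase gene (0.982), Relb to Abr (0.973) and Nfkbib to Itpripl2 (0.961). Tnfaip3 had the lowest best match, Ly75 at 0.918, and its second was Nr4a3 itself at 0.907.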
